A study of Mus musculus with 20 samples.

Results

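Tryptophan is broken down by a chain of enzymes that 9 genes were taken to represent here: Ido1, Ido2, Tdo2, Afmid, Kmo, Kynu and Haao of the kynurenine pathway, Il4i1 of aromatic amino acid oxidation, and Wars (Wars1 in newer annotation), which charges tryptophan onto its transfer RNA. The 9 were matched by symbol, among 49315 gene identifiers with counts. They were measured by RNA sequencing in eosinophils that had been sorted by flow cytometry from mouse lung. The grafts were Balb/c lungs placed in C57BL/6 recipients and harvested at day 7 without costimulatory blockade, a treatment that withholds accessory signals from T cells, and the sorted cells are described as recipient cells (n = 5 libraries). The lungs they were set against were resting lungs of untreated C57BL/6 mice (n = 5 libraries). Each library pooled the lungs of 3 to 5 mice, the sources used here state no age or sex, and the groups with blockade at day 7 and day 30 were not analysed here.

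The kynurenine pathway starts when a dioxygenase, IDO1, IDO2 or TDO2, opens the indole ring of tryptophan. Kynurenine formamidase (Afmid) releases kynurenine, kynurenine monooxygenase (Kmo) and kynureninase (Kynu) carry it on to hydroxyanthranilate, and hydroxyanthranilate dioxygenase (Haao) turns that into the precursor of quinolinate and NAD. IDO1 is induced by interferon-gamma and is known for restraining T cells by using up tryptophan and releasing kynurenine, while TDO2 is chiefly an enzyme of the liver. IL4I1 is a secreted oxidase of phenylalanine, tyrosine and tryptophan, made mainly by antigen-presenting cells and B cells, and the tryptophanyl-tRNA synthetase gene Wars is another target of interferon-gamma.

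Promoter windows in RefSeq (GRCm38.p6) were available for 5 of the 9 genes. Those of Afmid, Kmo and Haao are shown because they are the genes among these 5 that passed the test, Afmid and Kmo higher and Haao lower. Each holds the 250 bases before the RefSeq start site, written 5′ to 3′ on the strand of the gene, with capitals for GAAA or its complement TTTC, the core tetranucleotide that interferon regulatory factors contact. The windows lie at chr11:117825669-117825918 (plus strand, Afmid), chr1:175631943-175632192 (plus strand, Kmo) and chr17:83846791-83847040 (minus strand, Haao).
Afmid: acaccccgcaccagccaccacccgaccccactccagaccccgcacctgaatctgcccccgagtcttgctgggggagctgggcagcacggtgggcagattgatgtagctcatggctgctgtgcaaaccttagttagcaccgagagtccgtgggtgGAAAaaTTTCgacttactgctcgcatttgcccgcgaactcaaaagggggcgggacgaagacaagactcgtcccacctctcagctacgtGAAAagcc
Kmo: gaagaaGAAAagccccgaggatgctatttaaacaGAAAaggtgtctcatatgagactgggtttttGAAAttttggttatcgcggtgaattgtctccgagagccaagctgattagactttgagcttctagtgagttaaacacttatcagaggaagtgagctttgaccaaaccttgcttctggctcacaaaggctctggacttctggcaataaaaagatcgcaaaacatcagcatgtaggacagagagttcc
Haao: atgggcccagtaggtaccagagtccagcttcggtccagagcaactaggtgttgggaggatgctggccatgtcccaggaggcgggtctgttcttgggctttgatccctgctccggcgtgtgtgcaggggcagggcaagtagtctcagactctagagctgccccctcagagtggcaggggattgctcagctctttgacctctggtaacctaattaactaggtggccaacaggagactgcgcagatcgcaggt
The Afmid and Kmo windows hold 3 matches each and the Haao window 0, and those of Tdo2 and Il4i1, not shown, hold 1 and 2. The median over all 32851 windows is 2 matches, and 86.4% hold at least 1. The Afmid window lies within the span of Tk1, a gene on the opposite strand (chr11:117815526-117826092), so its letters are not those of Afmid alone. The windows of Kmo, Haao, Tdo2 and Il4i1 lie inside the GENCODE spans of their own genes. Their RefSeq start sites are therefore not the outer ends of those spans. That of Il4i1 also lies within the span of Tbc1d17 on the opposite strand. The full interferon-stimulated element GAAANNGAAA, the gamma-activated site TTCNNNGAA and the STAT6 site TTCNNNNGAA were searched on both strands and matched in 0 of the 5 available windows. They are found in 2.98%, 7.02% and 5.85% of all windows, in that order. These patterns can share bases with the tetranucleotide, and a match or its absence describes the letters of these windows alone.

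Total counts ran from 15695074 to 26683784 in the day 7 libraries and from 6666577 to 12883144 in the resting libraries, and the columns of the 2 groups stood in separate tables, so a batch and the group cannot be told apart. The label of eosinophils was checked with 14 markers, which summed to 1809 to 4709 CPM (counts per 1000000 counts of the library, scaled with TMM factors) in the day 7 libraries and 2549 to 4437 CPM in the resting libraries. Of these markers 2 were higher (Siglecf and Il1rl1) and 6 lower, the granule protein and ribonuclease genes Epx, Prg2, Prg3, Ear1, Ear2 and Ear6. The other 6, among them the eotaxin receptor gene Ccr3 and the interleukin-5 receptor gene Il5ra, did not pass the test. Markers of other cells were present as well and moved with the groups. Those of monocytes and macrophages were higher in 11 of 14 cases, at 4405 to 9648 CPM in the day 7 libraries and 1881 to 2733 CPM in the resting libraries. T cell markers were higher in 13 of 13 cases (423 to 1065 CPM at day 7, 115 to 159 CPM at rest), and dendritic cell markers in 7 of 12 cases with 1 lower (273 to 332 CPM at day 7, 182 to 256 CPM at rest). Lung endothelial markers were lower in 10 of 10 cases (81.4 to 151 CPM at day 7, 1971 to 2684 CPM at rest) and epithelial markers in 9 of 10 (35.4 to 480 CPM at day 7, 3329 to 5979 CPM at rest). Alveolar macrophage markers fell in 6 of 9 cases (576 to 1322 CPM at day 7, 1334 to 2013 CPM at rest), and B and plasma cell markers in 7 of 10 (209 to 329 CPM at day 7, 363 to 541 CPM at rest), with 1 gene higher in each list. Neutrophil markers had the highest mean sum of the 12 lists in both groups, at 5309 to 10740 CPM at day 7 and 9332 to 12180 CPM at rest. Of these 11 genes 0 were higher and 3 lower, Camp, Ngp and Ltf. With TMM factors the groups overlapped. Their sums differed by -2480 CPM (day 7 minus resting, exact two-sided permutation p = 0.0556, adjusted over the 12 lists 0.0667). With library totals alone the sums differed by -3666 CPM (day 7 minus resting, exact two-sided permutation p = 0.00794, not adjusted). Summed markers of mast cells and basophils overlapped between the groups (54.1 to 240 CPM at day 7, 201 to 270 CPM at rest). Single genes of that list moved both ways, with 2 higher (Mcpt8 and Cma1) and 1 lower (Kit) of 7 tested. Summed stromal markers overlapped as well (133 to 663 CPM at day 7, 451 to 568 CPM at rest). Of 8 stromal genes 1 was higher and 4 were lower. Natural killer markers were higher in 6 of 8 cases. No marker of these lists was at 0 in all day 7 libraries, and the part of such cells in the results below was not tested. In bulk samples such as these, fewer cells of a type and less RNA per cell cannot be told apart, and the p-values measure only the spread between these pools.

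**Figure D1:**
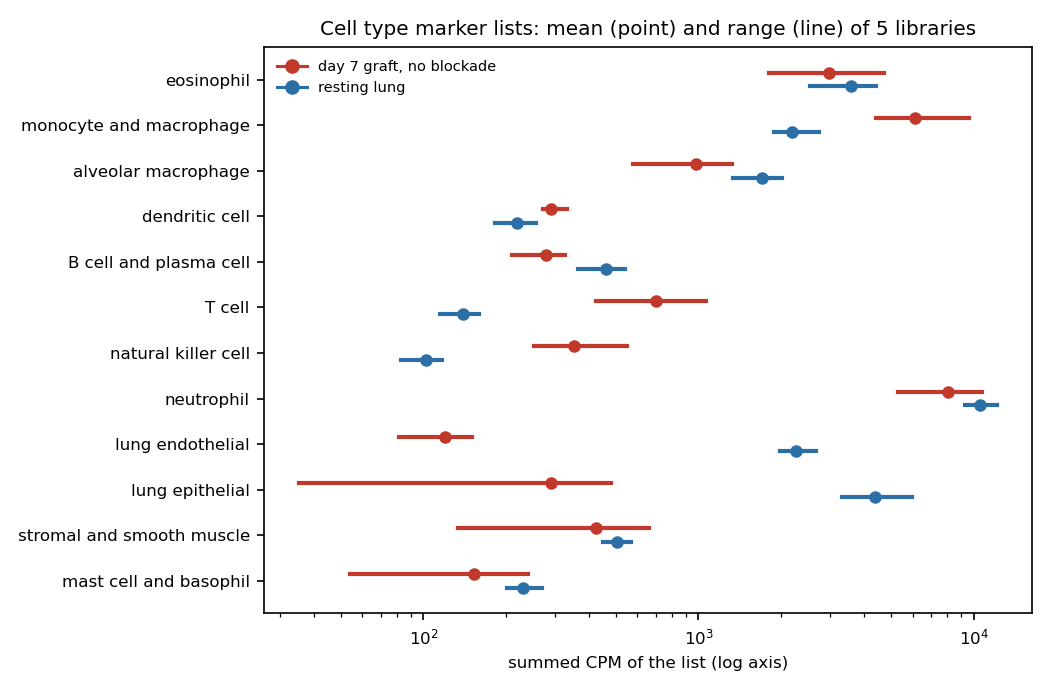
Summed CPM (log axis) of 12 lists of cell type markers in the day 7 graft libraries (red) and the resting lung libraries (blue), with the mean as a point and the range of 5 libraries as a line. The eosinophil lists overlap between the groups, the monocyte and macrophage, T cell and natural killer lists lie higher at day 7, and the endothelial and epithelial lists lie lower.

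Of the 9 genes, 7 had enough counts to be tested. Ido1, Afmid, Kmo, Kynu and Wars, 5 genes in all, were higher in the day 7 grafts, 1 gene, Haao, was lower, and Tdo2 did not pass. Across all 16500 genes tested 23.3% were called higher and 23.4% lower, 46.7% in either direction, by edgeR's quasi-likelihood test at an adjusted p below 0.05. The median log2 fold change (day 7 minus resting) was 0.80 over the 7 genes and 0.05 over all genes tested. Scaling to library totals alone shifted the median of all genes by -0.19 on the log2 scale, and under it 3 of these genes were higher (Ido1, Kynu and Wars) and 1 lower (Haao). Ido2 and Il4i1 fell below the filter on low counts.

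**Figure D2:**
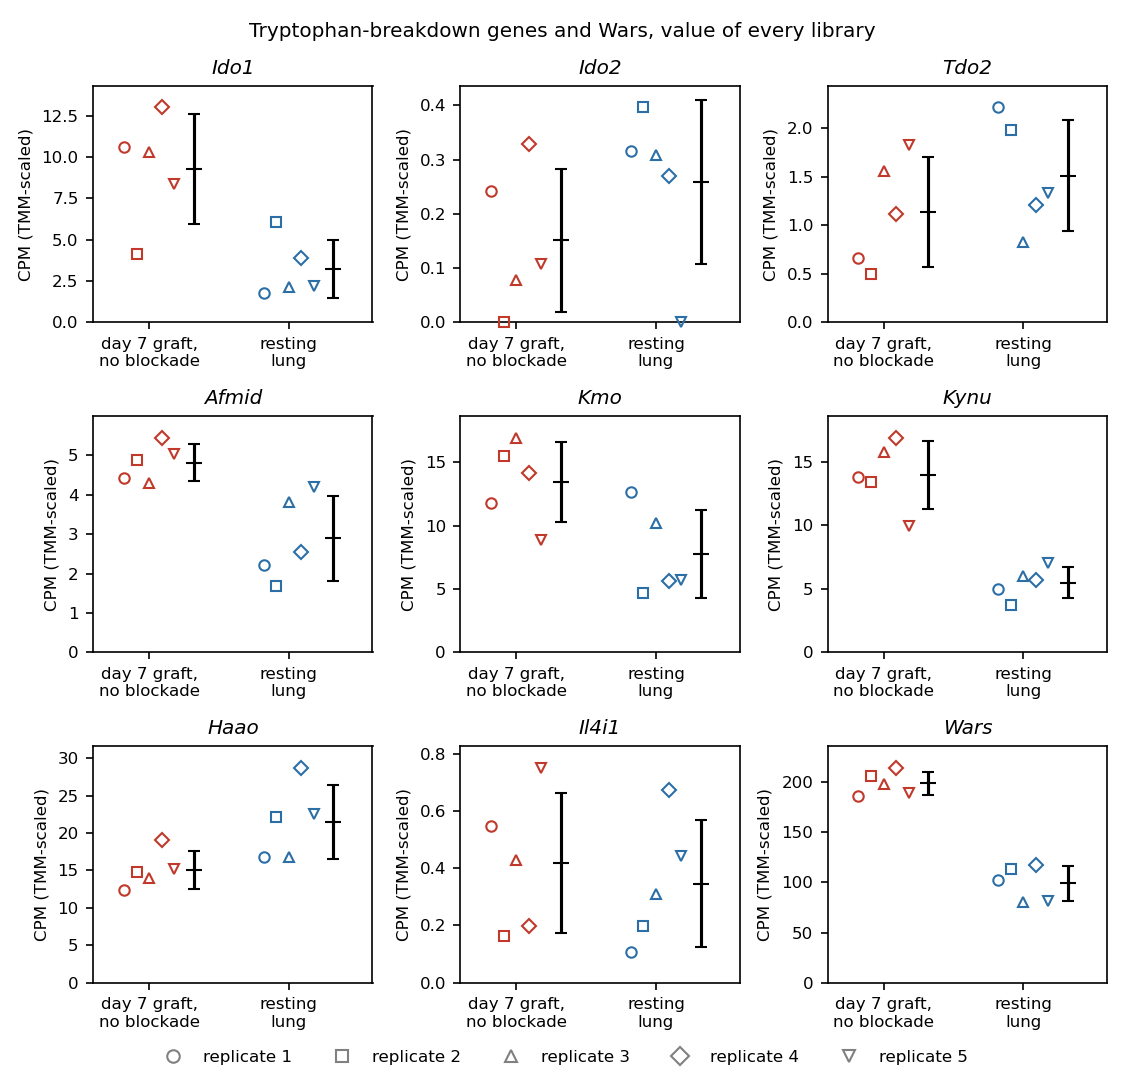
CPM (TMM-scaled) of each of the 9 genes in every library, with day 7 grafts without blockade left (red) and resting lung right (blue), each symbol a replicate and the black bar the mean and SD of 5 libraries. Kynu, Afmid and Wars lie higher in all 5 day 7 libraries than in any resting library, whereas the groups overlap for the others.

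At the entry to the pathway Ido1 was the dioxygenase gene that rose. Ido1 (ENSMUSG00000031551, chromosome 8, 24584136 to 24597009, mm10) had 10.6, 4.11, 10.3, 13.0 and 8.37 CPM in day 7 replicates 1 to 5, against 1.80, 6.04, 2.16, 3.91 and 2.22 CPM in resting replicates 1 to 5. The groups overlapped only through the replicates numbered 2, the lowest at day 7 and the highest at rest, and 4 of 5 day 7 libraries were above every resting library. The mean was 9.28 ± 3.33 CPM at day 7 and 3.22 ± 1.78 CPM at rest (SD, n = 5 each), which gave a log2 difference of 1.53 ± 0.37 (SE; edgeR quasi-likelihood adjusted p = 0.00384). It rested on 868 counts in the day 7 libraries and 158 in the resting libraries. Leaving out any 1 library gave log2 fold changes of 1.39 to 1.90, the highest without resting replicate 2. Ido1 is also known from dendritic cells and from endothelium exposed to interferon-gamma, with 7 of 12 markers higher for dendritic cells and 10 of 10 lower for endothelium in these libraries.

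Tdo2 and Ido2, the other dioxygenase genes, stayed low. Tdo2 (ENSMUSG00000028011, chromosome 3, 81957090 to 81976202) had 0.67, 0.49, 1.56, 1.12 and 1.83 CPM in the day 7 libraries, against 2.22, 1.98, 0.82, 1.21 and 1.33 CPM in the resting libraries. The values overlapped over most of their range, and the log2 fold change came to -0.40 ± 0.41 (SE; edgeR quasi-likelihood adjusted p = 0.446). Ido2, the neighbour of Ido1 on the same strand (ENSMUSG00000031549, chromosome 8, 24531892 to 24576333), had 13 counts over the 5 day 7 libraries and 12 over the 5 resting libraries. In single libraries it had 4, 0, 2, 5 and 2 counts at day 7, against 3, 4, 3, 2 and 0 counts at rest, where 3 counts correspond to 0.112 to 0.191 CPM at day 7 and 0.233 to 0.45 CPM at rest. A difference in Ido2 was not detectable at this depth. Without the filter on low counts its quasi-likelihood adjusted p was 0.628, and DESeq2 gave an adjusted p of 0.575.

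Per length of exon, Ido1 made up most of the dioxygenase transcripts in both groups. The lengths, unions of all annotated exons, were 1825 bases for Ido1, 3636 for Ido2 and 3881 for Tdo2, and the shares depend on them. In CPM without this scaling, Ido1 was below Tdo2 in resting replicate 1 (1.80 against 2.22 CPM) and above it in every other library. Its share of the summed CPM per kilobase of Ido1, Ido2 and Tdo2 was 96.1, 94.7, 93.0, 95.0 and 90.2% in the day 7 libraries, against 59.9, 84.2, 79.95, 84.7 and 78.0% in the resting libraries. All 5 day 7 libraries were above all 5 resting libraries, and resting replicate 1, with the highest Tdo2 and the lowest Ido1 of its group, was lowest. The difference of the mean shares was 16.4 percentage points, and 12.1 without that library. This share was chosen after the values were seen and carries no test.

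Afmid, whose enzyme follows the dioxygenases, was higher by a small margin. Afmid (ENSMUSG00000017718, chromosome 11, 117825924 to 117839908) had 4.43, 4.87, 4.30, 5.45 and 5.05 CPM in the day 7 libraries, against 2.22, 1.68, 3.81, 2.56 and 4.21 CPM in the resting libraries. The lowest day 7 library, replicate 3, was just above the highest resting library, replicate 5, so the groups did not overlap, which was the case with day 7 higher in 16.4% of all genes tested. The log2 fold change came to 0.72 ± 0.25 (SE; edgeR quasi-likelihood adjusted p = 0.0323). The call ended with library totals alone (adjusted p = 0.107) and without day 7 replicate 4 or resting replicate 1, 2 or 4 (quasi-likelihood adjusted p of 0.0571 to 0.0688). Exons of Afmid overlap those of Tk1, the cytosolic thymidine kinase gene on the opposite strand, and of Gm20708 on the same strand, and the sources used here do not state the strand setting of the counts. Tk1 was itself higher, with 20.5 ± 2.36 CPM at day 7 and 9.84 ± 2.40 CPM at rest (SD, n = 5 each), and its part in the Afmid value was not tested.

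Kmo and Kynu, the enzymes that carry kynurenine onward, were both higher, Kynu more clearly. Kynu (ENSMUSG00000026866, chromosome 2, 43555329 to 43682715) had 13.8, 13.4, 15.8, 16.9 and 9.93 CPM in the day 7 libraries, against 4.96, 3.77, 5.97, 5.66 and 7.01 CPM in the resting libraries. All day 7 libraries were above all resting libraries. The mean was 13.9 ± 2.66 CPM at day 7 and 5.47 ± 1.21 CPM at rest (SD, n = 5 each), which gave a log2 difference of 1.34 ± 0.20 (SE; edgeR quasi-likelihood adjusted p = 9.02e-05), and leaving out any 1 library gave 1.24 to 1.46. Kmo (ENSMUSG00000039783, chromosome 1, 175620381 to 175662116) had 11.8, 15.5, 16.96, 14.2 and 8.91 CPM in the day 7 libraries, against 12.7, 4.66, 10.2, 5.66 and 5.69 CPM in the resting libraries. Resting replicates 1 and 3 were in the range of the day 7 libraries, and 3 of 5 day 7 libraries were above every resting library. The log2 fold change of Kmo came to 0.80 ± 0.28 (SE; edgeR quasi-likelihood adjusted p = 0.0305), and the call ended with library totals alone (adjusted p = 0.103). It also ended without day 7 replicate 2 or 3 or resting replicate 2, 4 or 5 (quasi-likelihood adjusted p of 0.051 to 0.0737). Both genes are expressed by macrophages, and in the same libraries 11 of 14 monocyte and macrophage markers were higher and 6 of 9 alveolar macrophage markers lower; their part was not tested.

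Haao, the last enzyme of the set before quinolinate, went the other way. Haao (ENSMUSG00000000673, chromosome 17, 83831156 to 83847963) had 12.3, 14.8, 14.0, 19.1 and 15.1 CPM in the day 7 libraries, against 16.8, 22.2, 16.8, 28.7 and 22.6 CPM in the resting libraries. In both groups replicate 4 was the highest, and day 7 replicate 4 alone reached the resting range. The mean was 15.1 ± 2.501 CPM at day 7 and 21.4 ± 4.95 CPM at rest (SD, n = 5 each), which gave a log2 difference of -0.50 ± 0.17 (SE; edgeR quasi-likelihood adjusted p = 0.028). The call was lost when genes of low count were kept (adjusted p = 0.0802) and without day 7 replicate 1 or 3 or resting replicate 2, 4 or 5 (quasi-likelihood adjusted p of 0.0618 to 0.0931). Ido1, Kmo, Kynu and Haao are without exons that overlap another annotated gene.

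**Figure D3:**
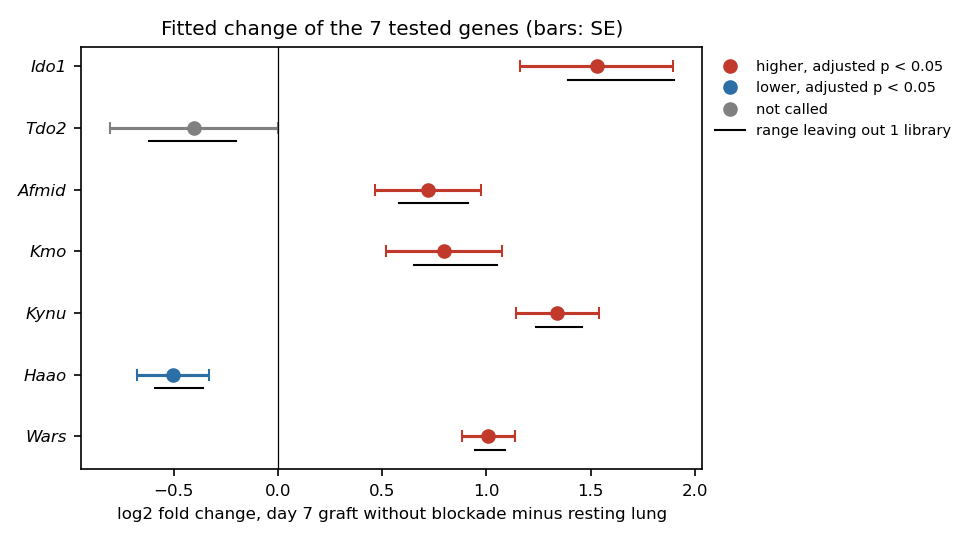
Fitted log2 fold change (day 7 graft without blockade minus resting lung) of the 7 tested genes in pathway order, with Wars last; points with bars are the estimate and its SE, red higher, blue lower and grey not called, and the thin black line is the range when 1 library is left out. Ido1, Afmid, Kmo, Kynu and Wars lie right of 0 and Haao lies left of it, with Tdo2 within 1 SE of 0.

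Il4i1 was close to the limit of detection in both groups. Il4i1 (ENSMUSG00000074141, chromosome 7, 44816387 to 44840809) had 9, 3, 11, 3 and 14 counts in the day 7 libraries, against 1, 2, 3, 5 and 6 counts in the resting libraries, or 0.42 ± 0.25 and 0.35 ± 0.22 CPM (SD, n = 5 each). The libraries of the groups were mixed, and the adjusted p without the filter was 0.68 by the quasi-likelihood test and 0.774 by DESeq2. Exons of Il4i1 overlap those of Nup62 on the same strand and of Atf5 and Tbc1d17 on the opposite strand, so reads from shared exons may be assigned elsewhere and the level of Il4i1 is uncertain. Nup62, a nuclear pore gene, had 31.6 ± 4.93 CPM at day 7 and 26.3 ± 4.48 CPM at rest (SD, n = 5 each; quasi-likelihood adjusted p = 0.156).

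Wars was the most abundant of the 9 genes and, relative to its mean, varied least between the day 7 libraries. Wars (ENSMUSG00000021266, chromosome 12, 108860030 to 108894174) had 187, 207, 198, 214 and 189 CPM in the day 7 libraries, against 102, 113, 80.8, 117 and 81.5 CPM in the resting libraries. Every day 7 library was above every resting library. The mean was 199 ± 11.7 CPM at day 7 and 99.0 ± 17.2 CPM at rest (SD, n = 5 each), which gave a log2 difference of 1.01 ± 0.13 (SE; edgeR quasi-likelihood adjusted p = 2.03e-05). Leaving out any 1 library gave 0.95 to 1.09.

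Wars was set beside the other cytosolic aminoacyl-tRNA synthetase genes, which load other amino acids. Of 20 listed, 19 were matched, Wars included, and Mars1, for methionine, matched no identifier under that symbol, so that the shares below leave it out. Whether its counts stand under another symbol was not checked. Of the 19, 10 were higher and 0 lower, against 23.3% and 23.4% of all genes tested, with a median log2 fold change of 0.36. With library totals alone 6 rose and 1 fell. Rars, for arginine, had the highest value of the list at 1.13 ± 0.15 on the log2 scale, Wars was second, and Eprs, for glutamate and proline, followed at 0.84 ± 0.15 (SE). Vars, for valine, did not pass, with 77.9 ± 14.4 CPM at day 7 and 89.3 ± 6.58 CPM at rest (SD, n = 5 each). Wars made up 12.8, 13.5, 13.1, 15.3 and 14.65% of the summed CPM of the 19 genes in the day 7 libraries, against 9.84, 11.3, 8.37, 10.9 and 8.35% in the resting libraries. The shares did not overlap, and their means differed by 4.12 percentage points (exact two-sided permutation p = 0.00794, the smallest that 5 against 5 can give). The difference was 3.77 to 4.50 points when any 1 library was left out. The mitochondrial partner Wars2 had 6.49 CPM at day 7 and 6.93 CPM at rest and did not pass (quasi-likelihood adjusted p = 0.765), and of 17 mitochondrial synthetase genes 4 were higher, near the 23.3% of all genes tested, and 1 lower. When scaled to library totals, 1 of the 17 rose and 2 fell.

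**Figure D4:**
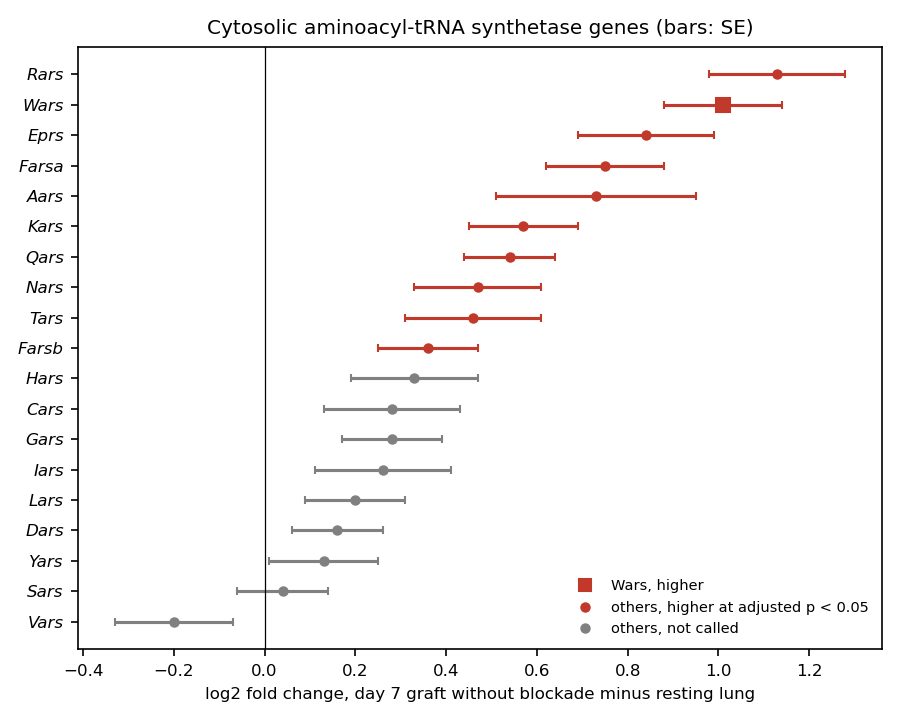
Log2 fold change (day 7 graft without blockade minus resting lung) with its SE for 19 cytosolic aminoacyl-tRNA synthetase genes, red where higher at an adjusted p below 0.05 and grey where not called, with Wars as a square. Rars and Wars lie furthest to the right, and Vars lies left of 0 without a call.

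Scaled to exon length, the order of the 9 genes differed between the groups in its upper part. In the day 7 libraries Wars had 57.7 ± 3.41 CPM per kilobase and Ido1 5.09 ± 1.82, followed by Haao with 3.22 ± 0.53, Kmo with 2.85 ± 0.67 and Kynu with 2.27 ± 0.43 (SD, n = 5 each). In the resting libraries Wars had 28.7 ± 4.98 CPM per kilobase and Haao came next with 4.57 ± 1.06, followed by Ido1 with 1.77 ± 0.97, Kmo with 1.65 ± 0.74 and Kynu with 0.89 ± 0.20 (SD, n = 5 each). Afmid, Tdo2, Il4i1 and Ido2 followed in that order in both groups, with 1.36, 0.292, 0.102 and 0.0416 CPM per kilobase at day 7 and 0.818, 0.390, 0.0848 and 0.0710 at rest. Neighbours whose means differed by less than the larger of their SDs were Haao and Kmo, and Kmo and Kynu, at day 7, and Ido1 and Kmo, Kynu and Afmid, and Il4i1 and Ido2 at rest. Wars stood above the other 8 genes in every library. Exon length is the union of all annotated exons, which is longer than a single transcript for several of these genes.

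**Figure D5:**
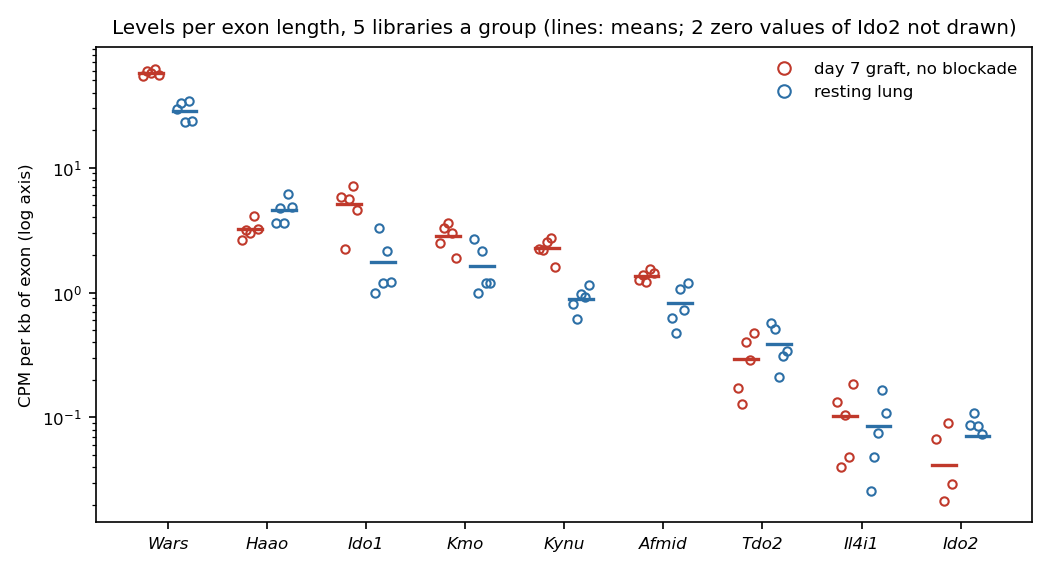
Level of each of the 9 genes in CPM per kilobase of annotated exon (log axis), 5 day 7 graft libraries (red, left of each pair) and 5 resting lung libraries (blue, right), with the mean as a line; the 2 libraries with 0 counts of Ido2 are not drawn. Wars stands above the others in both groups, Ido1 is second at day 7 and Haao is second at rest.

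The genes with the most similar profiles over the 10 libraries were found by the root mean square distance of centred log2(CPM + 0.5) values. The search covered tested genes with an official symbol, so genes with provisional or clone names, and the genes of the list itself, were left out. For Ido1 these were the cyclin gene Ccnb1 (distance 0.31), the leukotriene receptor gene Cysltr2 (0.34) and the topoisomerase gene Top2a (0.35). For Kynu they were Rhoq, Arl5a and Mtfr2 (0.14 to 0.20), and for Wars Exosc8, Tinf2 and Hspbap1 (0.13 to 0.14). For Haao they were Bicral, Ptgir and Wdr45 (0.12 to 0.16), for Afmid Mrps30, Map3k7 and Zfp626 (0.17 to 0.18), for Kmo Snx24, Snhg6 and Trbj1-3 (0.22 to 0.27), and for Tdo2 Vwa3b, Dzip3 and Casc1 (0.21 to 0.25). Of the 7, Ido1 had the largest distances to its nearest genes among those searched, and the distance is a description without a test.

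Genes that use the products of the kynurenine pathway, or make NAD without it, were called about as often as genes at large. Of 13 genes of the side branches and NAD synthesis 11 were tested, 3 were higher and 3 lower, against 23.3% and 23.4% of all genes tested, and their median log2 fold change was 0.10. Nampt, the rate-limiting enzyme of NAD salvage from nicotinamide, had 695 ± 53.6 CPM at day 7 and 107 ± 13.6 CPM at rest (SD, n = 5 each; log2 fold change 2.70 ± 0.13 SE, quasi-likelihood adjusted p = 3.26e-09). Got2, which can make kynurenic acid besides its main role in aspartate metabolism, and Nadsyn1, the NAD synthetase gene, rose by 0.57 and 0.47 on the log2 scale. When scaled to library totals, 1 gene of this list rose and 4 fell. Kyat1, a kynurenine aminotransferase gene, fell to 2.02 ± 0.42 CPM at day 7, against 4.78 ± 0.44 CPM at rest (SD, n = 5 each). Nnmt, which methylates nicotinamide, fell by 2.72 on the log2 scale, and Nmnat2, an enzyme of the last step to NAD, fell by 2.15. Nmnat2 was low, with 0.63 ± 0.32 CPM at day 7 and 2.81 ± 0.84 CPM at rest (SD, n = 5 each). Qprt, the enzyme that takes quinolinate to the NAD pathway, had 1.26 CPM at day 7 and 1.88 CPM at rest and did not pass (quasi-likelihood adjusted p = 0.105).

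Carriers of aromatic and large neutral amino acids rose in 5 of 10 cases and fell in 1, against 23.3% and 23.4% of all genes tested. Their median log2 fold change was 0.36, and 4 rose and 2 fell when scaled to library totals. Slc7a5 and Slc3a2 form the heterodimer that exchanges tryptophan and leucine across the membrane. Slc7a5 had 46.1 ± 25.9 CPM at day 7 and 11.6 ± 1.14 CPM at rest, and Slc3a2 had 496 ± 183 CPM at day 7 and 221 ± 33.1 CPM at rest (SD, n = 5 each). Slc7a8, a related light chain, rose by 1.89 ± 0.24 and Slc16a10, an aromatic amino acid carrier, by 0.92 ± 0.20 on the log2 scale (SE). Slc6a14, an epithelial carrier, fell by 3.30 beside epithelial markers that were lower in 9 of 10 cases. Slc43a2 did not pass, with 131 ± 30.0 CPM at day 7 and 108 ± 4.05 CPM at rest (SD, n = 5 each).

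Of 10 genes of the serotonin and melatonin branch of tryptophan use 6 were tested. Of the 6, 5 were lower and 0 higher, against 23.4% and 23.3% of all genes tested, and their median log2 fold change was -2.83. The tryptophan hydroxylase genes that open the branch were below the filter, Tph1 with 84 counts over the day 7 libraries and 22 over the resting libraries and Tph2 with 6 at day 7 and 15 at rest, as were Aanat and Asmt of melatonin synthesis. Maoa and Maob, the monoamine oxidase genes, fell to 2.06 ± 0.70 and 0.61 ± 0.33 CPM at day 7, against 29.1 ± 5.20 and 13.3 ± 2.22 CPM at rest (SD, n = 5 each). Inmt, an indole methyltransferase abundant in whole lung, fell to 2.76 ± 1.18 CPM, against 597 ± 81.4 CPM at rest (SD, n = 5 each). The vesicular transporter gene Slc18a2 did not pass, with 54.7 ± 23.3 CPM at day 7 and 43.9 ± 12.5 CPM at rest. Markers of endothelium and epithelium were lower in the same libraries, and their part was not tested.

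Genes of phenylalanine and tyrosine breakdown and of the tetrahydrobiopterin cofactor were likewise called at a share close to that of all genes. Of 15 genes 10 were tested, 3 were higher and 3 lower, against 23.3% and 23.4% of all genes tested, with a median log2 fold change of -0.02. The liver enzymes of tyrosine breakdown Tat, Hpd and Hgd were below the filter, with 0 to 8 counts each over the 5 day 7 libraries and 10 to 33 over the 5 resting libraries. Got1, an aspartate and aromatic aminotransferase, and Mif, which has tautomerase activity on aromatic pyruvates, rose by 2.65 ± 0.27 and 2.53 ± 0.22 on the log2 scale (SE). Gch1, which starts biopterin synthesis, rose by 0.60 ± 0.17. Pcbd1 fell by 1.41, Fah fell by 1.12 and Gstz1 fell by 0.72 on the log2 scale. Pcbd1 was low, with 0.41 ± 0.13 CPM at day 7 and 1.09 ± 0.37 CPM at rest (SD, n = 5 each).

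Regulators that stand upstream and downstream of tryptophan use were compared last. The counts of their 3 lists stand beside 23.3% of all genes tested called higher and 23.4% called lower. Of 12 genes of interferon-gamma signalling 9 were higher and 0 lower, with a median log2 fold change of 1.17 (9 and 1 when scaled to library totals), among them Ifng itself (27.4 ± 27.2 CPM at day 7 and 0.68 ± 0.55 CPM at rest, SD, n = 5 each). Socs1, a feedback inhibitor of the pathway, rose by 3.83 ± 0.19 on the log2 scale (SE), and the kinase gene Jak1 did not pass, with 572 CPM at day 7 and 633 CPM at rest. Ifng is a product of T and natural killer cells, whose markers were higher in 13 of 13 and 6 of 8 cases. Of 12 genes of the response to amino acid starvation, through which cells sense loss of tryptophan, 5 were higher and 2 lower. Psat1, Trib3, Cebpb, Ddit3 and Shmt2 were the higher ones, by 0.45 to 1.76 on the log2 scale. Sesn2 and Vldlr were lower, with log2 fold changes of -0.60 and -4.37. When scaled to library totals, 3 of the 12 were higher and 3 lower. Eif2ak4, which encodes the uncharged tRNA sensor GCN2, Atf4 and Asns did not pass, with Atf4 at 200 ± 28.1 CPM at day 7 and 242 ± 16.2 CPM at rest (SD, n = 5 each). The aryl hydrocarbon receptor, which kynurenine can bind, did not pass, with Ahr at 242 ± 78.1 CPM at day 7 and 224 ± 59.8 CPM at rest. Of 9 genes of that pathway 3 were higher and 1 lower, and 2 and 1 when scaled to library totals. The higher genes, Gpr35, Tiparp and Arnt, rose by 0.57, 0.52 and 0.51 on the log2 scale. The lower gene, Cyp1a1, had 0.056 ± 0.095 CPM at day 7 and 20.6 ± 7.3 CPM at rest (SD, n = 5 each). Endothelial and epithelial markers were lower in 10 of 10 and 9 of 10 cases, and their part was not tested.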

How the data were processed

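The deposited values are read counts per Ensembl gene, whole numbers without normalization. The submitters' processing notes name STAR 2.5.2b, featureCounts, Subread 1.5.2, bcl2fastq 2.17, Trimmomatic 0.36 and the mm10 build, and the sources used here do not state the strand setting. Columns headed by bare numbers, 10 in all, could be tied to no sample and were not used. The 9 genes and all lists were chosen with earlier results of these data known.

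The 2 tables were joined on 49315 identifiers, and edgeR 4.0.16 (R 4.3.3) was fitted to 16500 genes that passed filterByExpr, with TMM factors, robust quasi-likelihood tests and Benjamini-Hochberg adjustment over all genes at 0.05. CPM values carry the TMM factors. Log2 fold changes come from the fit. Each SE of a log2 fold change is its absolute value divided by the square root of the quasi-likelihood F statistic. Gene spans and exon lengths come from GENCODE M21. Single values were compared with exact two-sided permutation tests. The code was tested on simulated data. Genes of the wider lists were named by a rule on the size of the change among called genes, plus an abundant gene without a call, and others named for their known roles were chosen after their values were seen. Alternatives were library totals alone, edgeR's relative log expression (RLE) factors, no filter, a non-robust fit, a replicate block, limma-voom, DESeq2 and leaving out each library. Floors of 3 counts cover counting error only. Some genes of the wider lists are not reported here by name.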

Additional observations from a re-analysis of the deposited data

Results flagged for a closer look

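The share of Ido1 in the summed CPM per kilobase of the 3 dioxygenase genes was 59.9% in resting replicate 1, apart from the other resting libraries, which lay between 77.99 and 84.71%. The gap took up 0.729 of the range of the 5 resting libraries, above the critical value of 0.71 for 5 values. Among 22 groups of values examined in this way, chance gives such a gap in about 1 in 20. That library had 17 counts of Ido1, 3 of Ido2 and 21 of Tdo2.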

How the results depend on the processing

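The directions of the 7 tested genes held under every alternative run. Ido1, Kynu and Wars stayed past the threshold throughout. Library totals alone gave Kmo 0.60 (quasi-likelihood adjusted p = 0.103) and Afmid 0.54 (adjusted p = 0.107), and fitting without a filter gave Haao -0.39 (adjusted p = 0.0802). Over all genes, 2521 were higher with library totals alone, against 3843, and 6715 were lower without a filter and 6209 by DESeq2, against 3859. With TMM factors the dendritic cell marker sums differed by 72.06 CPM (exact two-sided permutation p = 0.00794) and the neutrophil sums by -2480 CPM (exact p = 0.0556). With library totals alone the dendritic cell marker sums differed by 38.6 CPM (exact two-sided permutation p = 0.151) and the neutrophil sums by -3666 CPM (exact p = 0.00794). With that scaling the counts of genes were 1 higher for the kynurenine branches, 2 lower for the transporters, 5 lower for phenylalanine and tyrosine breakdown, 6 higher and 1 lower for cytosolic synthetases, 1 higher and 2 lower for mitochondrial synthetases, 3 higher for the starvation response and 1 lower for interferon-gamma signalling. The cause was not tested.

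Leaving out 1 library gave log2 fold changes of 1.39 to 1.90 for Ido1, -0.62 to -0.20 for Tdo2, 1.24 to 1.46 for Kynu, 0.66 to 1.05 for Kmo, -0.59 to -0.36 for Haao, 0.58 to 0.91 for Afmid and 0.95 to 1.09 for Wars. It left 3508 to 3976 genes higher and 3669 to 4020 lower, and the Wars share differed by 3.77 to 4.50 points.

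Deviations of same-numbered libraries had correlations of -0.225 to 0.142, and those of differently numbered libraries -0.263 to 0.212. No pairing was seen by this measure, but a weak one could escape it, and the numbers are not known to pair the libraries. With replicate as a block 3317 genes were higher and 3636 lower, and the calls of the 7 genes did not change (Ido1 1.57, Kynu 1.34, Kmo 0.85, Haao -0.49, Afmid 0.78, Wars 1.02 and Tdo2 -0.46). Depth limits Ido2 and Il4i1, with 25 and 57 counts in all 10 libraries.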
